A study of Mus musculus with 6 samples.

Results

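A set of 10 genes of blood vessel formation and maintenance were examined in the gastrocnemius, the large calf muscle, of young and aged mice. They were the ligands Vegfa, Angpt1, Angpt2 and Apln, the receptors Kdr, Flt1 and Tek, the endothelial surface genes Pecam1 and Cdh5, and the endothelial enzyme gene Nos3. The genes were chosen by name, with earlier results of these data known. Their probes were found through the RefSeq accession that the array gives for each probe. The 10 genes had 13 of the 55669 probes, among 36710 genes on the array, and all 10 were among the 20900 genes tested. Probes without a gene symbol were counted as genes under the identifier that the array gives. Of the 20900 genes tested, 13844 had a symbol. RNA came from 3 young male mice at 13 weeks of age and 3 aged male mice at 26 months of age, with 1 single-colour array per mouse. Per the study's methods the animals were C57BL/6J. The labels give no treatment, transgene or mutation for either group.

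Vascular endothelial growth factor A (VEGF-A) is secreted by many cells, muscle fibres among them, and acts on endothelial cells, which line every blood vessel. VEGFR2, the product of Kdr, carries most of its signal for growth, migration and survival, while VEGFR1, the product of Flt1, binds the same ligand tightly, signals weakly and has a soluble form that captures it. The angiopoietins act on a separate receptor, Tie2 (Tek): angiopoietin-1 activates it and steadies vessels, and angiopoietin-2 acts against this in many settings. Skeletal muscle has a dense capillary bed that supplies oxygen and fuel to its fibres.

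The sequences before the start sites of Vegfa and Apln are shown because both genes encode secreted ligands known to respond to low oxygen, and because these stretches lie outside the annotated gene. Each is the 250 bases upstream of a RefSeq transcript start in build GRCm38.p6, read on the minus strand, at chr17:46032378-46032627 for Vegfa and at chrX:48034854-48035103 for Apln. Capitals mark GGAAG or its reverse complement, a form of the core letters bound by ETS factors. That family includes endothelial regulators such as Erg and Fli1. Other forms of the core were not searched and are not marked.
Vegfa: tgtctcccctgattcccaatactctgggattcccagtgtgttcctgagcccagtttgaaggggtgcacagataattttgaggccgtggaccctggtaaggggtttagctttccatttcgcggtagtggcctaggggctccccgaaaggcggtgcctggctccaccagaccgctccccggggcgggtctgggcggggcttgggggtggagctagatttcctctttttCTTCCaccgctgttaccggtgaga
Apln: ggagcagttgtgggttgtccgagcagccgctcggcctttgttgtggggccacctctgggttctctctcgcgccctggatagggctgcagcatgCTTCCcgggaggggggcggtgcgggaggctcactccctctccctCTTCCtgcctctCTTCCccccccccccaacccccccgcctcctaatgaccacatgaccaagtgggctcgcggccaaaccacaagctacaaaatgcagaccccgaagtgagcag
Vegfa had 1 such match, with its first base 24 bases before the start, and Apln had 3, at 157, 113 and 101 bases. The core of the hypoxia response element (ACGTG or GCGTG on either strand) had 0 matches in either stretch. A second Vegfa window, before another start site within the annotated gene and not shown, had 2 matches of the hypoxia core, and the windows of Kdr, Flt1 and Tek had 2, 1 and 0. Of 32851 mouse promoter windows of 250 bases, 64.1% held GGAAG on either strand and 38.6% the hypoxia core. The GC box GGGCGG, which was searched after the sequences had been seen, had 2 matches for Vegfa and 1 for Apln and was present in 32.7% of the windows. Of the 10 genes, 5 had a promoter window here (Vegfa, Kdr, Flt1, Tek and Apln). These matches are descriptions of letters and not binding sites.

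None of the 10 genes differed between aged and young mice at an adjusted p under 0.05 (limma with Benjamini-Hochberg adjustment over all 20900 genes), a threshold that 53 genes, or 0.254%, passed. At an unadjusted p under 0.05, 5 of the 10 had a lower level in aged mice (Vegfa, Flt1, Angpt1, Cdh5 and Apln), and 8.36% of all genes tested were lower at that level. The mean was lower in aged mice for 8 of the 10 genes, against 56.9% of all genes. For 5 of them (Vegfa, Flt1, Angpt1, Cdh5 and Nos3) each aged mouse was below each young mouse, a pattern that 13.9% of all genes showed. The median difference over the 10 genes was −0.44 on the log2 scale, beside −0.06 over all genes tested, whose quartiles were −0.28 and 0.19. The genes were chosen with earlier results of these data known, so the shares beside them are description and not a test. In a bulk muscle sample, fewer cells of a type and less RNA per cell cannot be told apart.

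**Figure D1:**
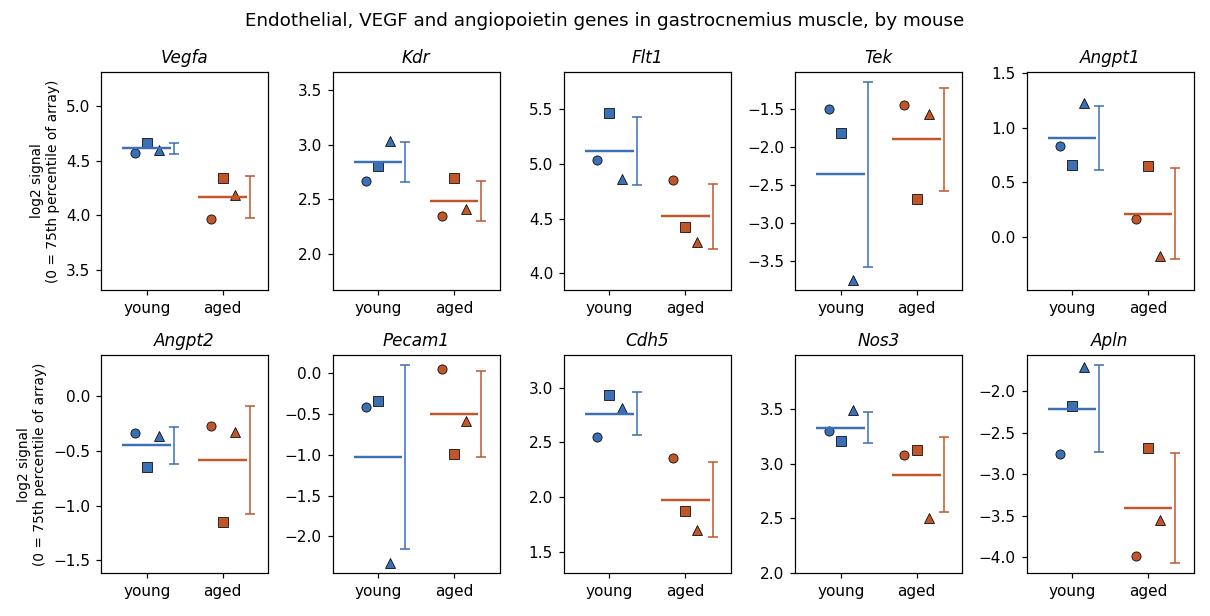
Level of each gene in each mouse. The vertical axis is log2 signal with the 75th percentile of the array at 0, and it has its own range for each gene. Circles, squares and triangles are replicates 1, 2 and 3 of each group, which were not treated as pairs. The horizontal line is the mean and the bar is the SD of 3 mice. Young and aged points do not overlap for Vegfa, Flt1, Angpt1, Cdh5 and Nos3, and young mouse 3 is far below the others for Tek and Pecam1.

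Levels are given as log2 of the processed signal of the probe, with 0 set at the 75th percentile of each array, and are compared between mice and not between genes. Vegfa encodes the ligand at the head of the pathway. Its level was 4.57, 4.66 and 4.60 in the 3 young mice and 3.96, 4.34 and 4.18 in the 3 aged mice. The young mice lay close together and all 3 aged mice were below them. The mean was 4.61 ± 0.05 in young mice and 4.16 ± 0.19 in aged mice (SD, n = 3 each), which is 0.733-fold in aged mice with a 95% interval of 0.559 to 0.960. The log2 difference of −0.45 (SE 0.16) had an adjusted p of 0.299 in limma. A separate Vegfa probe, designed on another transcript, gave 2.34, 2.72 and 2.48 in young mice and 1.78, 2.17 and 2.16 in aged mice. The groups did not overlap on this probe either, and its difference was −0.47 with an adjusted p of 0.352 in limma, in a fit over all probes, as for the second probes of Kdr and Nos3.

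Angpt1 encodes the ligand that activates Tie2. It measured 0.83, 0.66 and 1.23 in young mice and 0.16, 0.65 and −0.17 in aged mice. The groups did not overlap, but aged mouse 2 was almost level with young mouse 2. The means were 0.91 ± 0.29 and 0.21 ± 0.42 (SD, n = 3 each), a 0.619-fold level in aged mice (95% interval 0.400 to 0.957), and limma gave an adjusted p of 0.315 for the log2 difference of −0.69 (SE 0.26).

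Angpt2, the antagonist ligand that endothelial cells store and release, measured −0.33, −0.64 and −0.37 in young mice and −0.27, −1.15 and −0.33 in aged mice. The groups overlapped, and aged mouse 2 was the lowest of the 6. The difference was −0.14 (95% interval −0.78 to 0.51), or 0.910-fold, with an adjusted p of 0.838 in limma. Leaving out aged mouse 2 turned the difference to 0.15. The balance of the 2 angiopoietins was followed as the Angpt2 level minus the Angpt1 level in the same mouse, which does not depend on scaling between arrays. It was −1.16, −1.30 and −1.60 in young mice and −0.43, −1.81 and −0.15 in aged mice. Aged mice 1 and 3 were above all young mice and aged mouse 2 was below them. The change of 0.56 between the means had p = 0.4 in a two-sided exact permutation test, for which 0.1 is the smallest p that 3 against 3 mice allow. The change was 1.06 without aged mouse 2 and 0.23 without aged mouse 3.

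Apln encodes apelin, a peptide made by endothelial cells and muscle that acts on the receptor Aplnr. Its level was −2.75, −2.18 and −1.70 in young mice and −3.99, −2.69 and −3.56 in aged mice. Aged mouse 2 was just above young mouse 1, so the groups overlapped, and the probe was not well above background on the array of aged mouse 1. The means were −2.21 ± 0.53 and −3.41 ± 0.66 (SD, n = 3 each), a 0.435-fold level in aged mice (95% interval 0.225 to 0.839). The log2 difference of −1.20 (SE 0.40) had an adjusted p of 0.268 in limma. With another background correction, normexp on the spot signal, the difference was −0.50. The difference of Apln was the largest of the 10 genes with all 6 mice, but not under that correction, where Angpt1 had −0.75, nor without aged mouse 1, where Apln had −0.91 and Cdh5 −0.98.

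Among the receptors, Flt1 had the clearest separation. Its level was 5.04, 5.47 and 4.86 in young mice and 4.85, 4.43 and 4.28 in aged mice. All aged mice were below all young mice, although aged mouse 1 was almost level with young mouse 3. The means of 5.12 ± 0.31 and 4.52 ± 0.30 (SD, n = 3 each) gave a 0.660-fold level in aged mice (95% interval 0.447 to 0.973), with a log2 difference of −0.60 (SE 0.24) and an adjusted p of 0.323 in limma.

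Kdr, the main signalling receptor, measured 2.67, 2.81 and 3.04 in young mice and 2.34, 2.70 and 2.41 in aged mice. Aged mouse 2 lay within the young mice and the other two aged mice below them. The difference was −0.36 (95% interval −0.79 to 0.08), or 0.782-fold, and its adjusted p was 0.422 in limma. A second Kdr probe, printed 10 times on the array, gave −0.37 with an adjusted p of 0.517 in limma and also overlapped. The SD over its 10 spots within an array was 0.04 to 0.09. Between mice the SD of this probe was 0.41 in young mice and 0.05 in aged mice. The level of Flt1 relative to Kdr in the same mouse was 2.28 ± 0.42 in young mice and 2.04 ± 0.41 in aged mice (SD, n = 3 each), and the change of −0.24 had p = 0.6 in the two-sided exact permutation test. It was −0.06 without young mouse 2, −0.09 without aged mouse 2 and −0.48 without either young mouse 3 or aged mouse 1.

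Tek, the angiopoietin receptor, went the other way on its means. Its level was −1.50, −1.81 and −3.75 in young mice and −1.44, −2.68 and −1.56 in aged mice. Young mouse 3 stood far below the others, and the remaining young mice lay within the range of the aged mice. The difference was 0.46 with a 95% interval from −1.05 to 1.97, or 0.484-fold to 3.91-fold, and an adjusted p of 0.764 in limma. Without young mouse 3 it was −0.24. The unscaled signal of the probe was 15.5 in young mouse 3 and 44.6 to 114 in the other 5 mice.

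Pecam1 encodes PECAM-1 (CD31), an adhesion molecule at endothelial cell contacts that leukocytes and platelets also carry. It measured −0.42, −0.34 and −2.33 in young mice and 0.05, −0.99 and −0.58 in aged mice. The pattern resembled that of Tek, with young mouse 3 lowest and the other young mice within the aged range. The difference was 0.52 (95% interval −0.82 to 1.87), or 1.44-fold, with an adjusted p of 0.693 in limma, and was −0.13 without young mouse 3. The 2 spots of the probe gave −2.72 and −1.94 on the array of that mouse, an SD of 0.55 where the other arrays had 0.02 to 0.21. Without young mouse 3, all 10 genes had a lower mean in aged mice, with a median difference of −0.40.

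Cdh5 encodes VE-cadherin, the adhesion protein of endothelial junctions and a gene largely restricted to endothelium. It had the smallest adjusted p of the 10 genes. The young mice measured 2.55, 2.94 and 2.81 and the aged mice 2.36, 1.87 and 1.70. All aged mice were below all young mice. The aged mean of 1.98 ± 0.34 compared with a young mean of 2.77 ± 0.20 (SD, n = 3 each), a 0.579-fold level (95% interval 0.401 to 0.837). For the log2 difference of −0.79 (SE 0.22) limma gave an adjusted p of 0.215.

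Nos3 encodes endothelial nitric oxide synthase, whose product relaxes vessel walls and which VEGF-A signalling activates. Its level was 3.30, 3.21 and 3.49 in young mice and 3.08, 3.12 and 2.50 in aged mice. The groups did not overlap, with aged mouse 3 well below the rest. The difference was −0.43 (95% interval −0.95 to 0.08), or 0.742-fold, and had an adjusted p of 0.417 in limma. A second Nos3 probe with 10 spots gave 0.85, 0.93 and 1.11 in young mice and 0.75, 0.57 and −0.07 in aged mice. It separated the groups as well, with a difference of −0.55 and an adjusted p of 0.383 in limma.

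**Figure D2:**
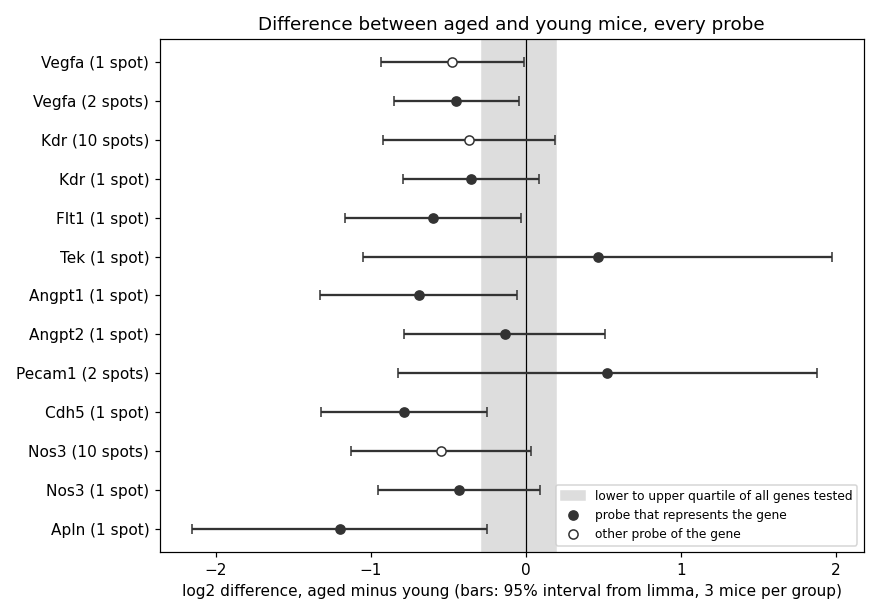
Difference between aged and young mice for every probe of the 10 genes. The horizontal axis is the log2 difference of the group means with its 95% interval from a limma fit over all probes (3 mice per group), and the grey band spans the quartiles of all genes tested. Filled points are the probes that represent the gene. The points of both Vegfa, both Kdr and both Nos3 probes lie left of 0, and only Tek and Pecam1 lie to the right, with the widest intervals.

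The 3 aged mice were compared singly with the young means. Aged mouse 1 had a median of −0.34 over the 10 genes, and 7 of them lay under the young mean. For aged mouse 2 the median was −0.30 and 9 genes lay under it, and for aged mouse 3 these were −0.63 and 7. Of all 20900 genes tested, 11784, 10675 and 11739 lay under the young mean in aged mice 1, 2 and 3. The young mice, measured from their own mean, had medians of −0.06, 0.04 and 0.06 over the 10 genes.

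Arrays lay in 2 rows of 1 slide. All young mice and aged mouse 1 were in the first row, and aged mice 2 and 3 were in the second. With the row as a block, which leaves aged mouse 1 against the young mice, 7 of the 10 genes had a lower mean. Of all 20900 genes tested, 11784 lay under the young mean in that mouse. For the 10 genes, the differences were −0.65 for Vegfa, −0.49 for Kdr, −0.27 for Flt1, −0.74 for Angpt1, −0.41 for Cdh5, −0.25 for Nos3 and −1.78 for Apln. They were 0.92 for Tek, 0.18 for Angpt2 and 1.08 for Pecam1. The array of young mouse 3 had 389 genes more than 1 log2 unit below all 5 other arrays, where the others had 48 to 175, and the lowest 75th percentile of signal (209, against 258 to 311). The part of these array differences in the results was not tested.

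**Figure D3:**
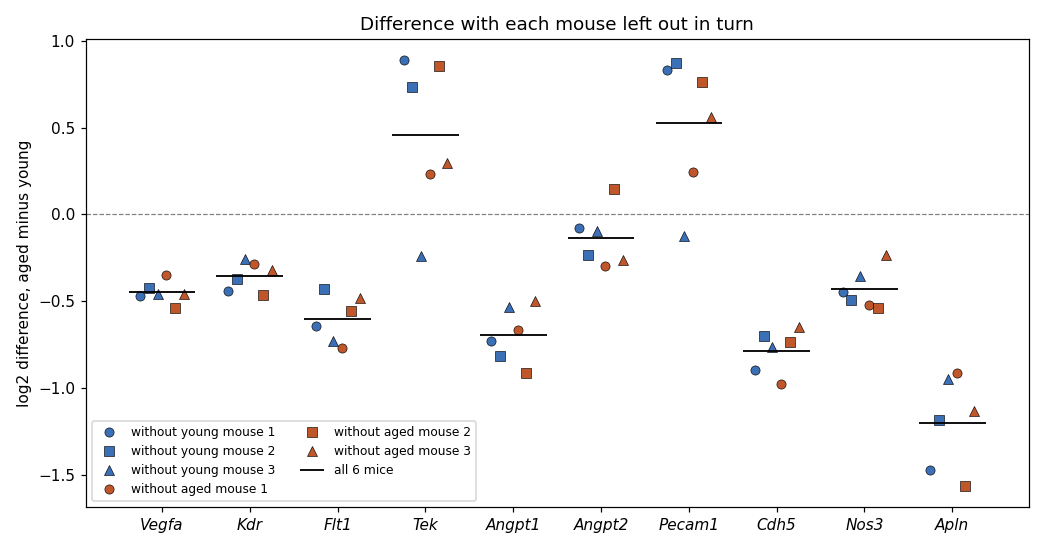
Difference between aged and young mice with each mouse left out in turn. The vertical axis is the log2 difference, the black line the value with all 6 mice, and each symbol the value without the mouse named in the key. Vegfa, Kdr, Flt1, Angpt1, Cdh5, Nos3 and Apln stay below 0 throughout, whereas Tek and Pecam1 cross 0 without young mouse 3 and Angpt2 crosses 0 without aged mouse 2.

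Other genes of the same pathways were read from lists, also chosen with earlier results of these data known. None of the 116 list genes tested passed the threshold over all genes in limma. Of them, 33 had an unadjusted p under 0.05 in either direction, as did 14.4% of all genes tested. Of 6 other VEGF ligands, receptors and co-receptors tested, 4 had a lower mean in aged mice and 2 a higher one, and the summed level overlapped (5.12 to 5.55 in young and 4.72 to 5.61 in aged mice). Pgf, a ligand that binds VEGFR1, measured −1.10, −1.18 and −1.24 in young mice and −1.65, −2.10 and −2.60 in aged mice. The groups did not overlap, and the difference was −0.95 with an adjusted p of 0.196 in limma. Vegfc, a ligand of lymphatic vessels, had a difference of −0.81 (adjusted p = 0.271 in limma) and no overlap.

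In the angiopoietin pathway, 2 further genes were tested and both had lower means. These were Ptprb, the vascular phosphatase that dampens Tie2, at −0.91, and Tie1, the partner receptor of Tie2, at −0.52, and both overlapped between groups. The apelin receptor gene Aplnr had a higher mean by 0.84 and overlapped between the groups, with an adjusted p of 0.517 in limma.

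The nitric oxide list held 11 genes beside Nos3, and 9 had lower means. Its summed level overlapped, at 4.24 to 4.68 in young and 3.99 to 4.36 in aged mice. The 3 subunits of soluble guanylate cyclase, the receptor of nitric oxide in smooth muscle, did not overlap between groups, at −0.79 for Gucy1b1, −0.71 for Gucy1a1 and −0.69 for Gucy1a2. Nos2, the inducible synthase, was lower by the most in the list (−1.19, adjusted p = 0.151 in limma, no overlap). Gch1, which makes the cofactor of the synthases, was higher in every aged mouse than in every young mouse, by 0.88 on the means (adjusted p = 0.373 in limma).

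Of 24 endothelial marker genes beyond the 10, 19 had lower means in aged mice and 5 higher ones, where 56.9% of all genes had lower means. Their median difference was −0.40, with quartiles of −0.68 and −0.08, and 9 had no overlap with aged mice lower, a pattern of 13.9% of all genes. Among these were Robo4, a guidance receptor of endothelium (−0.87), Sox17, an arterial transcription factor (−0.83), Icam2, a junctional adhesion molecule (−0.81), and Erg, the ETS factor that maintains endothelial identity (−0.78). Sox17 had the smallest adjusted p of all list genes, 0.149 in limma. The summed level of the 24 markers was 8.33 to 8.46 in young mice and 7.81 to 8.06 in aged mice, without overlap. Without young mouse 3, 20 of the 24 had lower means and the median was −0.47. With the slide row as a block, 15 of the 24 had lower means and the median was −0.28. In aged mouse 1, which this block compares with the young mice, 11784 of all 20900 genes lay under the young mean. The part of the endothelial marker difference in the values of Vegfa, its receptors and the angiopoietins was not tested.

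Genes of sprouting endothelial cells had lower means in 8 of 9 cases (median −0.59), against 56.9% of all genes, with Pgf again among them. Some of the 9 were not well above background on every array, among them the gene at the median. The summed level of the 9 overlapped (5.33 to 5.63 in young and 5.24 to 5.66 in aged mice). Of 10 arterial, venous and lymphatic genes, 7 had lower means, with an overlapping summed level (4.06 to 4.24 in young and 3.76 to 4.26 in aged mice). Hey1, a Notch target in arteries, was lower by 1.22 on the log2 scale without overlap (adjusted p = 0.168 in limma). The pericyte and smooth muscle list, from the cells that wrap vessels, had 9 of 11 genes with lower means. In this list 6 genes did not overlap, with aged mice lower, a pattern of 13.9% of all genes. Notch3 (−0.64), Myh11 (−0.52) and Pdgfrb (−0.40) were among them. The summed level of the list was 6.42 to 6.60 in young mice and 6.06 to 6.20 in aged mice.

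As a list, by its median, genes that govern Vegfa or respond to low oxygen were nearer to the median of all genes. The list pools factors, their regulators and their targets, so its median is not a measure of the control of Vegfa. The part of these genes in the level of Vegfa was not tested. Of 16 hypoxia and PGC-1α genes, 11 had lower means and the median was −0.17, with summed levels of 9.62 to 9.90 in young and 9.31 to 9.95 in aged mice. Hif1a, the oxygen-regulated factor that induces Vegfa, differed by −0.19, and Ppargc1a, the coactivator that raises Vegfa in muscle, by −0.02. Epas1, which encodes another hypoxia-inducible factor, differed by −0.44 with overlap. The 16 differences ranged from −0.97 (Hif3a) to 0.71 (Egln3), and 5 were above 0. Esrra, the nuclear receptor through which that coactivator acts on Vegfa, measured 6.62, 6.85 and 6.83 in young mice and 6.48, 6.23 and 6.05 in aged mice. Its groups did not overlap, and the difference was −0.51 with an adjusted p of 0.285 in limma. Ankrd37, a hypoxia target, differed by −0.92 without overlap (adjusted p = 0.183 in limma).

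**Figure D4:**
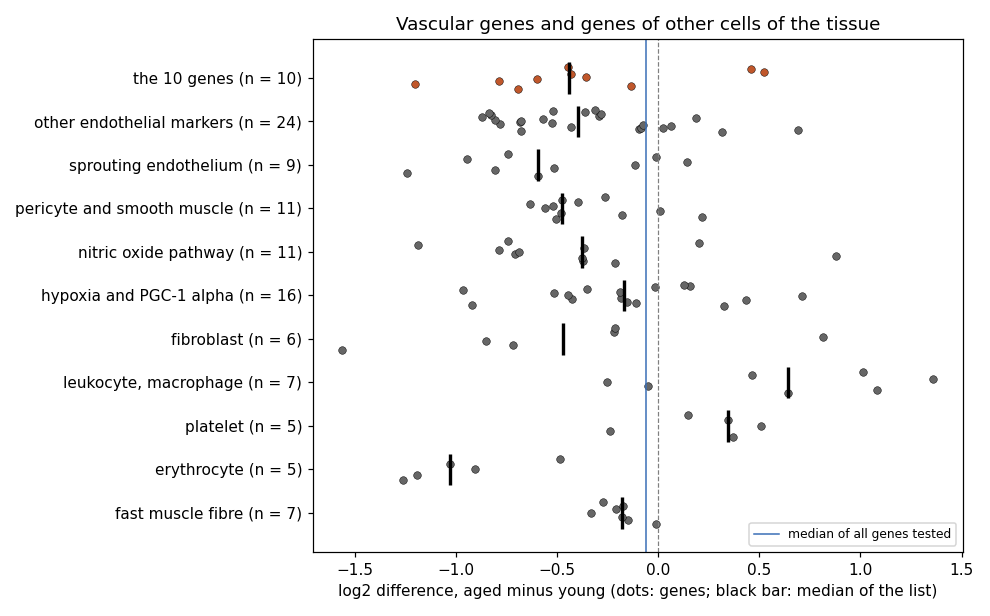
Difference between aged and young mice for the 10 genes and for lists of vascular genes and other cells. Each dot is 1 gene, on a horizontal axis of log2 difference, black bars are list medians and the blue line is the median of all genes tested. Medians of the endothelial, sprouting, pericyte, nitric oxide and fibroblast lists lie near that of the 10 genes (−0.44). The erythrocyte median lies further left (−1.03), and the leukocyte and platelet medians lie to the right of 0.

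Markers of other cells of the tissue, some of which carry genes of the set, differed on their means as well. All 5 erythrocyte genes tested had lower means in aged mice (median −1.03), and their summed level was 9.31 to 9.85 in young mice and 8.18 to 8.84 in aged mice. Hba-a1 and Hba-a2, whose transcripts are nearly identical so that their values are uncertain, differed by −1.20 and −0.91. Hbb-bt differed by −1.03 without overlap. Of 7 leukocyte and macrophage genes, which include cells with Pecam1 and Flt1, 5 had higher means. Cd68 was higher by 1.08 and Adgre1 by 0.64, neither with overlap. The other 2, Itgam and Csf1r, were the brightest of the list and differed by −0.26 and −0.05 with overlap. The summed level of the list was 5.24 to 5.50 in young and 5.35 to 5.42 in aged mice. Platelet genes, from a cell that carries Pecam1 and Angpt1, had higher means in 4 of 5 cases (Pf4, the brightest, 0.51 with overlap), with a summed level of 3.07 to 3.58 in young and 3.38 to 4.02 in aged mice. Fibroblast genes had lower means in 5 of 6 cases (median −0.47, Col1a1 −1.56, Dcn −0.85). Their summed levels were 8.53 to 8.73 in young mice and 7.38 to 8.36 in aged mice. The 7 fast muscle fibre genes tested, led in signal by Pvalb, were present in all mice at summed levels of 12.4 to 12.7 in young and 12.1 to 12.5 in aged mice. All 7 had lower means in aged mice (median −0.18), 2 of them without overlap. The part of these cells in the results for the 10 genes was not tested.

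**Figure D5:**
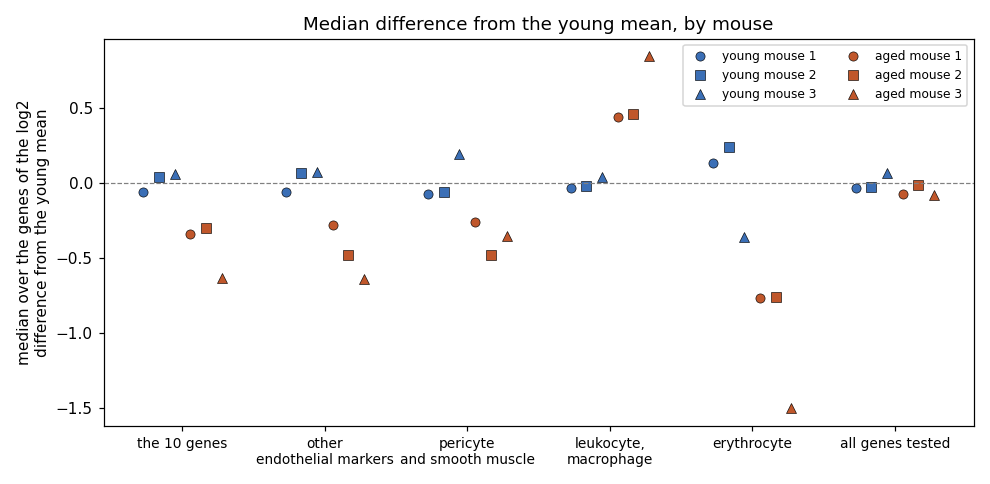
Median difference from the young mean in each mouse, for the 10 genes, 4 marker lists and all genes tested. The vertical axis is log2, and symbols mark the mice by replicate. The 3 aged mice are below the 3 young mice for the 10 genes and the other endothelial markers. The same holds for the pericyte and smooth muscle list and the erythrocyte list. For the leukocyte list the aged mice are above the young mice.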

How the data were processed

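RNA from gastrocnemius muscle of 3 young and 3 aged mice was labelled with Cy3 and hybridised to 1 Agilent array each. The deposited values are linear intensities from Agilent Feature Extraction (11.0.1.1 in the file headers, 9.5 in the submitters' processing notes), already background-subtracted by the authors' scanner software. The array was designed on mm9. The authors' normalization and test for the arrays are not given in the sources used here.

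Of 62976 spots, 59305 were not controls. Flagged spots (161 to 212 per array) were left out, log2 signals of replicate spots were averaged, and each array was set to its own 75th percentile. Probes well above background on at least 3 of 6 arrays were kept (48.7% to 53.8% of probes were well above it per array), and the brightest kept probe represented a gene. Accessions were named through RefSeq (GRCm38.p6), which gave symbols to 28325 of 55669 probes (12 with only flagged spots on some array were left out). Age was fitted with limma 3.58.1 in R 4.3.3, and p-values were Benjamini-Hochberg adjusted over 20900 genes. The fit was tested on simulated data. The labels number the mice separately, and with 3 per group their number limits the precision.

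The 10 genes and all lists were chosen with earlier results of these data known. From the lists, genes past the threshold were named, otherwise up to 4 per list with an unadjusted p under 0.05 and no overlap between groups. For a list with none, its brightest gene was named. Tie1, Gch1, Hif1a, Ppargc1a, Epas1, Hif3a, Egln3, Itgam and Csf1r fall outside that rule and were chosen after their values were seen. Alternatives were normexp (offset 50, on the median spot signal, as no mean signal was in the files used), quantile and median scaling, other filters and probe rules, the series matrix (largest difference from the scanner values 0), a variance trend, slide row or replicate number as a block, and each mouse left out. RT-PCR and metabolite data were not analysed here.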

Additional observations from a re-analysis of the deposited data

How the results depend on the processing

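None of the 10 genes passed the threshold under any of 17 alternatives (16 for Apln, which drops out where a probe must be above background on all arrays), and the smallest adjusted p was 0.0893, for Cdh5 without aged mouse 1. Vegfa, Kdr, Flt1, Angpt1, Cdh5, Nos3 and Apln were lower in aged mice in all of them, with differences between −0.65 and −0.35, −0.50 and −0.26, −0.77 and −0.27, −0.91 and −0.50, −0.98 and −0.41, −0.67 and −0.23, and −1.78 and −0.50. Angpt2 was higher with the slide row as a block (0.18). With 1 mouse left out in turn, Angpt2 ranged from −0.29 to 0.15, Tek from −0.24 to 0.89 and Pecam1 from −0.13 to 0.87, the number of the 10 genes with a higher mean from 0 (without young mouse 3) to 3 (without aged mouse 2), and the genes past the threshold from 1 (without aged mouse 3) to 199 (without aged mouse 1). The cause of these shifts was not tested. The 53 genes past the threshold became 8 with no filter on dim probes and 35 with probes detected on all arrays. Scaling to the median moved the median of all genes from −0.06 to −0.21 and that of the endothelial markers from −0.40 to −0.55, and the calls from 41 higher and 12 lower to 26 and 16 (38 and 22 with normexp, 22 and 19 with the slide row as a block). With the replicate number as a block 5 genes passed and none of the 10. Mice with the same number did not deviate together (correlations −0.06, −0.27 and 0.03). These 3 correlations show no pairing by number but are too few to exclude one. Blocks and the variance trend were not run for the differences Angpt2 minus Angpt1 and Flt1 minus Kdr. Their direction was the same under the other alternatives, but scaling an array as a whole cannot change them. The probe filters and the series matrix also left the same values. With 1 mouse left out the differences Angpt2 minus Angpt1 and Flt1 minus Kdr ranged from 0.23 to 1.06 and from −0.48 to −0.06. Only Apln of the 10 genes had an array on which its probe was not well above background.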
